A study of Homo sapiens with 24 samples.

Results

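The 2 arrays described here compared RNA of renal cell carcinoma cells transfected with miR-27b against RNA of the same line transfected with a control miRNA, once in the line 786O and once in the line A498, out of 24 arrays in the series. On each array the control RNA carried the dye Cy3 and the miR-27b RNA carried Cy5, with no dye swap, so that each value is a log2 ratio of miR-27b over control. Both lines were grown in culture medium and transfected with Lipofectamine RNAiMAX, and neither a dose nor a time after transfection was given. The other 6 arrays of the same array design held miR-143 in DU145 and PC3, an siRNA to GOLM1 (si-GOLM1) in DU145 and PC3, and CXCL10 treatment of 786O for 12 h and 24 h, each against its own control. An array of miR-27b in PC3 and the arrays of an siRNA to CAV2 (si-CAV2) in 786O and A498, all 3 on the other array design, were used for comparison. 786O and A498 are established lines from human renal carcinoma, and DU145 and PC3 are established lines from prostate cancer. Each line had 1 array, so the spread between cultures of a line was not measured.

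A microRNA such as miR-27b is loaded into an Argonaute protein and pairs, mostly through the bases near its 5′ end (the seed), with sites in messenger RNAs, which then tend to be degraded and translated less. miR-27b and its paralog miR-27a are known for targets in lipid metabolism, adipocyte differentiation and angiogenesis, PPARG being among the best studied. The comparison asked which messenger RNAs changed when miR-27b was supplied to renal carcinoma cells, and whether they were the same in both lines.

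The mature sequences below, from RefSeq (GRCh38.p14), show the seed of miR-27b, bases 2 to 8, in capitals, beside that of miR-27a, which has the same seed, and that of miR-143, the other microRNA on this array design.
hsa-miR-27b-3p: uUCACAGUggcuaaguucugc
hsa-miR-27a-3p: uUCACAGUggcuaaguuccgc
hsa-miR-143-3p: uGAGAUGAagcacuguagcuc
miR-27b and miR-27a shared 20 of 21 bases. The miR-27b-3p sequence lies at chr9:95085505-95085525 on the plus strand, within the span of AOPEP (C9orf3 on the array; chr9:94726699-95150224), and its seed pairs with the DNA letters ACTGTGA.

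The array probes are 60-base stretches of the transcripts, and some of them contain that site themselves. The 6 stretches of 30 bases below were taken from probes below 0 in both lines, with the site in capitals and written 5′ to 3′ along the messenger RNA. All were below -0.5 in both lines except RUNX1, which was at -0.43 in A498. HDHD2, B4GALT3, LIMK1 and the reported target RUNX1 belong to the genes that the naming rule covers, and CSF1 and PLK2 were added after their values were seen.
HDHD2: tgcatACTGTGAtaatcctgggccttgcaa
B4GALT3: tagggcttatgACTGTGAatccttgatgtc
LIMK1: gaagtattaaaACTGTGAagctttctcagt
CSF1: gaagccattgcACTGTGAacactgtacctg
PLK2: tggagcagcttttggctgcgtaACTGTGAa
RUNX1: cccggagggaaACTGTGAatgcttctgatt
In the files' hg19 annotation the probes lie at chr18:44633925-44633984 (HDHD2, minus strand), chr1:161141347-161141406 (B4GALT3, minus strand), chr7:73536663-73536722 (LIMK1, plus strand), chr1:110472240-110472299 (CSF1, plus strand), chr5:57749993-57750052 (PLK2, minus strand) and chr21:36164083-36164142 (RUNX1, minus strand). In all of them except HDHD2 an A follows the site, which makes it an 8-base site.

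Of 50599 probes, 26539 were well above background in at least 1 channel on each of the 2 arrays, and they measured 14785 named genes, each read by its brightest such probe. The median log2 ratio of the tested genes was 0.02 in 786O and 0.01 in A498. The error that the scanner software gave for a log2 ratio was 0.21 in both lines at the median, and it covers the spot, not the culture. The renal markers PAX8, PAX2 and CDH6 were well above background in the control channels of all 4 renal arrays of the design. PAX8 gave processed signals from 1234 to 5861 there, against 13.1 to 78.1 in the prostate lines. Not every renal marker separated the lines: CA9 was at 3.77 to 17.8 in the 786O controls, 2 of 3 of them not well above background, against 40.5 to 68.7 in PC3, and LOX (70.4 to 214 in the renal lines) overlapped with DU145, which reached 102. COXFA4L2 (NDUFA4L2) was not well above background in either line, and 7 of 8 renal markers were in each. Of the markers of other cells, 3 of 4 leukocyte, 2 of 3 endothelial and 4 (786O) or 5 (A498) of 6 prostate genes were well above background, the leukocyte gene CD68 at 266 and 1845. The leukocyte gene CD3E and the endothelial gene PECAM1 were not well above background in any of the renal control channels. The genes targeted by the siRNAs were low where Cy5 held the siRNA sample: GOLM1 at -3.02 in DU145 and -4.15 in PC3, and CAV2 at -3.20 in 786O and -3.80 in A498.

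Many genes changed in the same direction in both lines. A log2 ratio under -0.5 in 786O and in A498 was found for 230 genes (1.56% of the genes tested), and 190 genes exceeded 0.5 in both (1.29%). Taken singly, 786O had 599 genes below -0.5 (4.05%) and 706 above 0.5 (4.78%), and A498 had 556 (3.76%) and 589 (3.98%). The genes that were low in both lines had a median log2 ratio of -0.86 in 786O and -0.84 in A498, and those high in both a median of 0.76 in each line. Beyond 1.0 in both lines, 62 genes were lower (0.419%) and 18 were higher (0.122%). At the lower limit MARCKS (-0.50 and -1.25) and APAF1 (-0.84 and -0.50) were just inside, and OPRD1 (-0.50 and -0.71) was just outside. Across the 14785 genes the 2 arrays correlated with Pearson's r = 0.43, genes being no independent replicates. With the 6 arrays of other treatments, the miR-27b arrays gave r between 0.19 and 0.30 over 12 pairs. The 2 arrays of another treatment gave r = 0.34 for miR-143, 0.42 for si-GOLM1 and 0.23 for CXCL10. All these values used genes chosen on the miR-27b arrays.

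**Figure D1:**
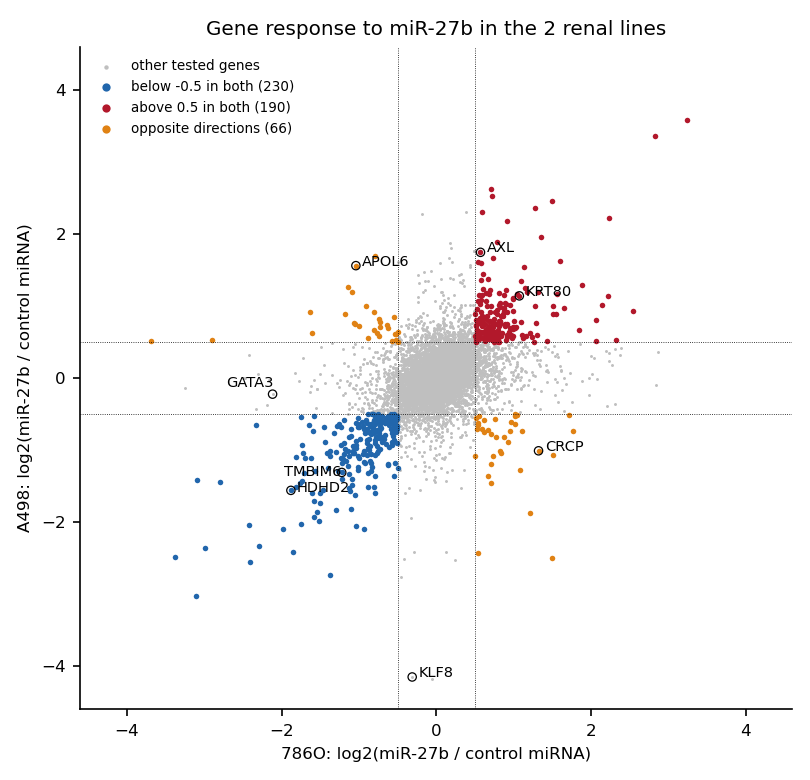
Each point is 1 of 14785 genes, with its log2 ratio of miR-27b over control miRNA in 786O on the x axis and in A498 on the y axis; dotted lines mark -0.5 and 0.5. More genes lie below -0.5 in both lines (230, blue) or above 0.5 in both (190, red) than in the corners of opposite direction (66, orange).

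Because Cy5 always held the treated sample, a probe that favours one dye gives the same sign on all arrays where its gene has signal. This was looked at on the 6 arrays of other treatments, on which no filter for dim probes was set. For a gene without signal there, the dye preference was not measured. When 1 miR-27b array was paired with 1 of these 6, the genes below -0.5 in both numbered 103 to 137 over the 12 pairs, against 230 for the pair of miR-27b arrays. For genes above 0.5 in both, such pairs gave 89 to 179, against 190. The genes were chosen on the 2 miR-27b arrays, so genes dim on the other array could lower the counts of such pairs. Over the same genes the 2 arrays of miR-143 gave 172 low and 168 high genes. Those of si-GOLM1 gave 182 and 174, and those of CXCL10 gave 126 and 124. Of the 230 low genes, 78 also had a mean below -0.5 on the 6 other arrays (1.05% of all genes did), and 68 had a dim channel, that is, at least 1 of the 4 in which the probe was not well above background. Of the 190 high genes, 33 had a mean above 0.5 on the other arrays (1.20% of all genes), and 101 had a dim channel. The 89 high genes with no dim channel had miR-143 medians of 0.40 in DU145 and 0.48 in PC3. On the si-GOLM1 and CXCL10 arrays their medians were 0.13 to 0.19. With no dim channel, 108 low genes and 29 high genes remained past 0.5 in both lines after the mean of the 6 other arrays was subtracted, and the genes named next come from these 2 sets. The 29 high genes had a median log2 ratio of 0 on both miR-143 arrays. An array on which a gene reads 0 gives no measure of its dye preference.

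Among the genes lower in both lines, HDHD2, which encodes a haloacid dehalogenase-like hydrolase, had the lowest average. Its processed signal was 1373 in the control and 373 in the miR-27b sample of 786O, and 656 and 222 in A498. The log2 ratios were -1.88 ± 0.27 in 786O and -1.56 ± 0.25 in A498 (error of the scanner software, 1 array each), while the 6 other arrays lay between -0.36 and 0.12. HDHD2 fell by the limma test of both arrays together, in which all 8 arrays of the design share 1 estimate of the spread and p-values are adjusted over all tested probes (adjusted p = 0.016).

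TMBIM6, an endoplasmic reticulum membrane protein that restrains cell death, gave signals of 27665 and 11862 in 786O and of 35176 and 14172 in A498. Its log2 ratio was -1.22 ± 0.23 in 786O and -1.31 ± 0.24 in A498, outside the -0.17 to -0.05 of the other arrays (limma, adjusted p = 0.0099). A second TMBIM6 probe gave only -0.16 and -0.17, so that the change depended on which probe was read. MAIP1, which assists assembly of the mitochondrial calcium uniporter, had signals of 1808 and 775 in 786O and 1679 and 633 in A498. Its ratios of -1.22 and -1.41 lay outside the -0.16 to 0.03 of the other arrays (limma, adjusted p = 0.013).

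B4GALT3, a galactosyltransferase of glycan synthesis, stood at -1.13 ± 0.23 in 786O and -1.34 ± 0.24 in A498, and its other probe gave -1.16 and -1.36 (limma, adjusted p = 0.018). PPARG, the nuclear receptor that drives adipocyte differentiation and a reported miR-27 target, had signals of 295 and 127 in 786O and 580 and 265 in A498. Its log2 ratio was -1.21 ± 0.23 and -1.13 ± 0.23, and a second probe gave -0.86 and -1.13 (limma, adjusted p = 0.018). Each tested probe of B4GALT3 and of PPARG was thus beyond -0.5 in both lines. Most genes with several probes did not reach this. Of the 230 low genes 45 had more than 1 tested probe, and in 11 of them every probe was below -0.5 in both lines. In the set of 108 low genes it was 8 of 35. Of the 190 high genes 22 had more than 1 tested probe, and in 1 of them every probe was above 0.5 in both lines.

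C6orf120 (-1.10 and -1.49) and the immunoglobulin-domain gene VSIG10 (-1.37 and -1.01) also fell (limma, adjusted p = 0.036 for both). The 3 VSIG10 probes ranged from -1.37 to -0.09 in 786O. LIMK1, the kinase that phosphorylates cofilin, was at -1.14 ± 0.23 and -1.22 ± 0.23 but varied from -0.86 to 0.76 on the other arrays, and did not pass (limma, adjusted p = 0.15). KLHL35 (-1.50 and -1.60) and PRRT4 (-1.46 and -1.55) passed (limma, adjusted p = 0.048 and 0.020), but their signals were only 14.4 to 76.0 and they also averaged -0.85 and -0.81 on the 6 other arrays. In 786O, CXCL10 for 12 h and 24 h gave KLHL35 -1.91 and -1.37 and PRRT4 -1.69 and -1.40. These lie near the miR-27b values in that line, so neither fall was particular to miR-27b there. Of the 108 genes in this set 51 passed the limma test, against 0.487% of all genes. The set was chosen by size on the same 2 arrays, so a high share was built in. Single values of the 108 ran from -1.88 to -0.51 in 786O and from -1.60 to -0.51 in A498.

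Among the genes higher in both lines, KRT80, a type II keratin, had signals of 1269 and 2673 in 786O and 248 and 548 in A498. Its log2 ratios were 1.07 ± 0.23 and 1.14 ± 0.23, against -0.28 to 0.10 on the other arrays, and it rose (limma, adjusted p = 0.018). CTDSPL2, a CTD-type phosphatase (0.99 and 0.93), EPB41L4B, a FERM-domain protein of the cell cortex (0.86 and 0.88), and the pattern receptor TLR4 (1.0 and 0.68) also rose (limma, adjusted p = 0.036, 0.042 and 0.040). TLR4 had signals of only 26.6 to 60.1, and its other probe was at -0.24 in A498. TLR4 also read 0 on the miR-143 and si-GOLM1 arrays, so those pairs added no spread to its test and its p-value is too small to rely on.

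The membrane transporter gene SLC45A4 had the highest average, at 1.15 ± 0.24 and 1.25 ± 0.24, with the other arrays between -0.17 and 1.06 (limma, adjusted p = 0.042). With miR-143 SLC45A4 read 0.88 in DU145 and 1.06 in PC3. Its other probe read only 0.43 in 786O and 0.27 in A498, and with the mean over both probes it did not pass (limma, adjusted p = 0.066, the range over 9 alternatives being 0.0067 to 0.31). RRAGC, a Rag GTPase of amino acid sensing by mTORC1, was at 0.88 and 0.93 (limma, adjusted p = 0.048). With miR-143 it read 1.05 in DU145 and 1.41 in PC3, higher than with miR-27b in either renal line. Within the 10 largest, CEP97, which caps centrioles (0.73 and 1.66), RNF157 (0.82 and 1.04), MPP4 (0.92 and 0.92) and HMGB3 (0.84 and 0.86) did not pass the limma test, with adjusted p of 0.087, 0.23, 0.37 and 0.073.

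**Figure D2:**
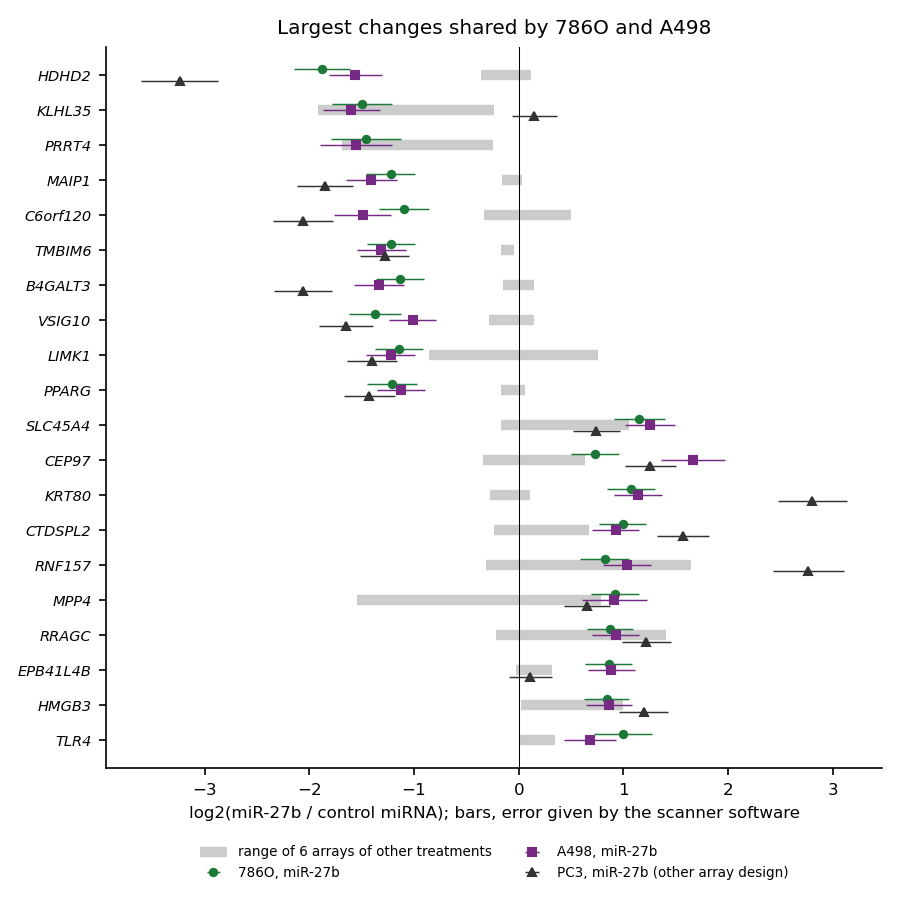
Log2 ratio of miR-27b over control miRNA (x axis) of the 10 lowest and 10 highest genes by average, in 786O (green), A498 (purple) and PC3 (black); bars are the error of the scanner software and grey bands the range of the 6 arrays of other treatments. HDHD2, MAIP1, TMBIM6, B4GALT3, VSIG10, PPARG and KRT80 lie clear of the grey band in both renal lines, and KLHL35 and PRRT4 lie within or across it.

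By the limma test, 72 genes fell (0.487% of those tested) and 26 rose (0.176%), and all of them were past 0.5 in both lines. 16 of the 72 also averaged below -0.5 on the 6 other arrays. Some of the 26, TLR4 among them, read 0 on the miR-143 and si-GOLM1 arrays, and those pairs gave their tests no spread. When the mean of both miR-27b arrays was set against the mean of the 3 other treatments in place of 0, no gene passed, 615 genes being lower and 554 higher at an unadjusted p under 0.05, and the smallest adjusted p was 0.065. Leaving out 786O left 3 genes that fell and leaving out A498 left 0, with 591 and 635 lower genes at an unadjusted p under 0.05.

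The same microRNA was also on an array of PC3 cells. The array of miR-27b in PC3 had its own control and took no part in choosing the genes. Of the 230 low genes, 166 were measured there, and 127 of them were below -0.5 (76.5%), against 14.4% of the 13411 genes measured in both. Their median log2 ratio in PC3 was -1.15, while that of all genes was 0.05. Of the 190 high genes, 146 were measured, 100 were above 0.5 (68.5%, against 19.4% of all genes), and the median was 0.84. Among the 108 low genes that remained after subtraction of the other arrays and had no dim channel, 84 of 99 were below -0.5 in PC3 with a median of -1.40, and 19 of the 25 high ones measured were above 0.5.

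Most of the lead genes were lower in PC3 than in either renal line: HDHD2 was at -3.24 ± 0.36, B4GALT3 at -2.06, C6orf120 at -2.06 and MAIP1 at -1.85. TMBIM6 (-1.28) and PPARG (-1.43) were close to their renal values, and KLHL35 was at 0.15. Of the high genes KRT80 reached 2.80 and RNF157 2.77, while EPB41L4B was at 0.11. The PC3 array spread more widely as a whole, with 14.4% of genes below -0.5 and 19.4% above 0.5. In 786O these shares were 4.05% and 4.78%, and in A498 3.76% and 3.98%. For 156 of the 166 low genes the same probe was read on both designs, so that a dye preference of the probe would be shared with PC3.

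**Figure D3:**
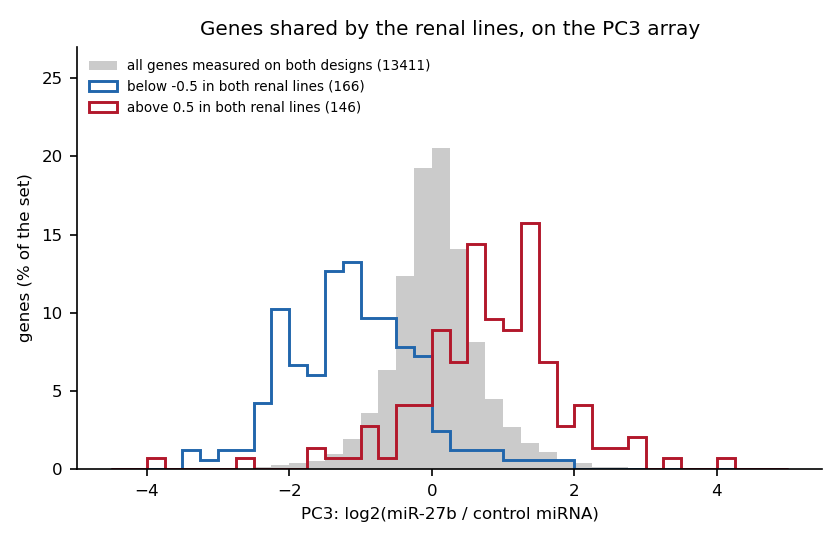
Distribution on the PC3 array of the log2 ratio of miR-27b over control miRNA (x axis), as a percent of each gene set (y axis), for all 13411 genes measured on both designs (grey), the 166 genes below -0.5 in both renal lines (blue) and the 146 above 0.5 in both (red). The blue outline is centred near -1.15 and the red one near 0.84, with all genes centred near 0.05.

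The si-CAV2 arrays offered a different treatment of the same 2 lines. Of the 230 low genes 188 were measured there, with medians of -0.17 in 786O and -0.29 in A498, and 49 were below -0.5 in both lines, against 1.94% of 13534 genes. Among the 108 low genes that remained after subtraction of the other arrays, 7 of 101 were below -0.5 in both si-CAV2 arrays, and the medians were 0.02 and -0.09. Of the 190 high genes, 8 of 123 were above 0.5 in both (0.835% of all genes). LIMK1 was low with si-CAV2 as well, at -0.94 in 786O and -0.63 in A498, whereas HDHD2 stood at -0.26 and -0.40 and PPARG at 0.13 and -0.22.

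The genes known as miR-27 targets gave a further view. Of 34 genes listed as reported targets of miR-27a or miR-27b, 26 were measured. They were below 0 in both lines for 20 of 26 (30.1% of all genes were), with medians of -0.28 in 786O and -0.23 in A498 against 0.02 and 0.01 over all genes. On the 6 other arrays their median lay between -0.11 and 0.08, and with si-CAV2 it was 0.07 in 786O and -0.03 in A498. 4 of the 26 were below -0.5 in both lines (1.56% of all genes were) and none was above 0.5 (1.29% of all genes). PPARG and ADORA2B passed the limma test as lower, 2 of the 26, against 0.487% of all genes.

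ADORA2B, an adenosine receptor, had signals of 913 and 529 in 786O and 1441 and 860 in A498, which gave -0.79 ± 0.22 and -0.74 ± 0.22, and it fell (limma, adjusted p = 0.036). HIPK2, a kinase that activates p53 signalling, was at -0.75 and -0.84, but the highest of its 5 probes reached 0.02 and 0.09 (limma, adjusted p = 0.075). TGFBR1, the type I receptor of TGF-beta, was at -1.20 ± 0.25 in 786O and -0.58 ± 0.23 in A498 (limma, adjusted p = 0.12). RUNX1, a transcription factor of blood cell development, was at -0.63 and -0.43 on the probe that carries the site printed above, and its 5 probes reached up to 0.26 and 0.08 (limma, adjusted p = 0.062).

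The cholesterol exporter ABCA1 (-0.50 and -0.46), the cytochrome CYP1B1 (-0.49 and -0.42), the lymphangiogenic factor VEGFC (-0.50 and -0.26) and the ubiquitin ligase subunit FBXW7 (-0.51 and -0.23) were on the same side in both lines without passing the limma test (adjusted p from 0.19 to 0.22). In PC3 these 4 were at -1.74, -2.26, -2.44 and -1.20. FOXO1 (-0.10 and -0.06), NOTCH1 (0.19 and 0.13), VDR (0.12 and 0.10) and APC (0.05 and 0.12) stayed within 0.2 of 0 in both lines. THRB (0.26 and 0.41) had the highest average of the 26, and ZBTB10 was at 0.09 and 0.37 (limma, adjusted p = 0.51 and 0.73). Above 0 in both lines were 5 of the 26, against 5383 of all 14785 genes. In PC3 16 of the 25 targets measured were below -0.5, against 14.4% of all genes measured there, and their median was -0.84.

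**Figure D4:**
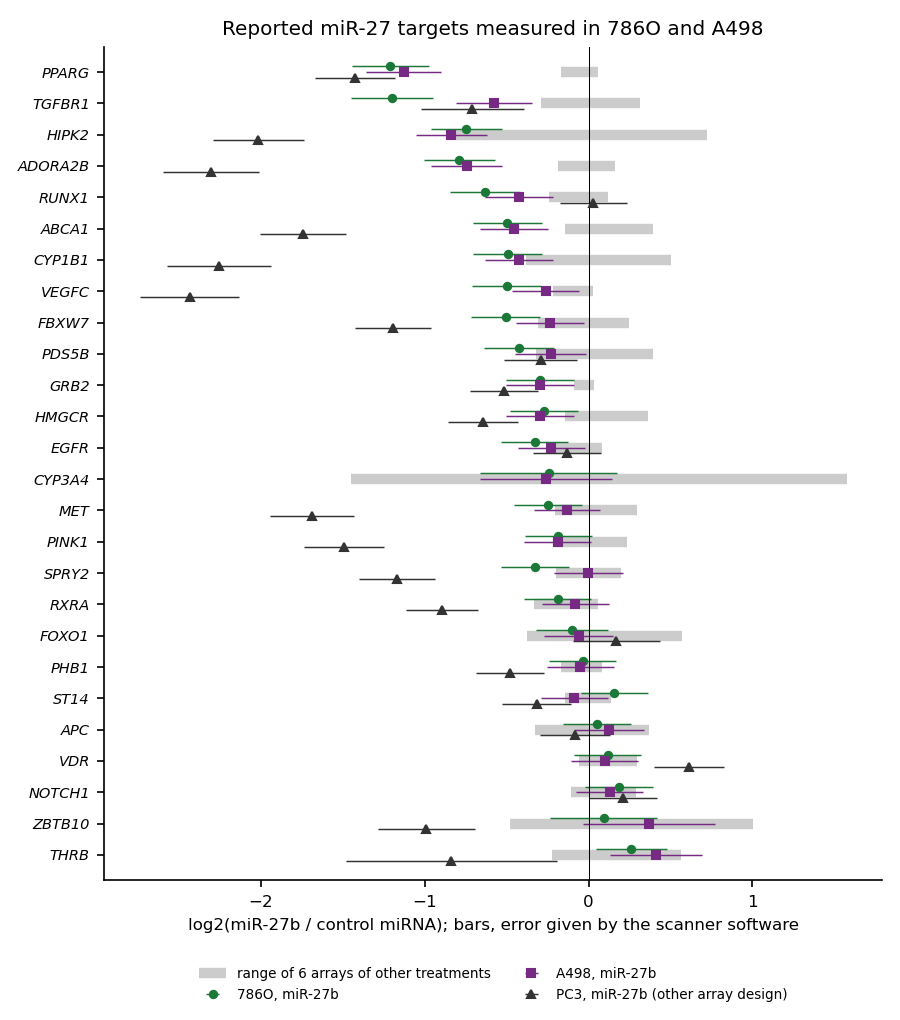
Log2 ratio of miR-27b over control miRNA (x axis) of the 26 measured reported targets, ordered by their average in 786O (green) and A498 (purple), with PC3 in black; bars are the error of the scanner software and grey bands the range of the 6 arrays of other treatments. PPARG, TGFBR1 and ADORA2B lie clear of the grey band in both renal lines, and many targets, such as CYP1B1 and VEGFC, were lower in PC3 than in either renal line.

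The seed site was looked for in the probes themselves. The letters ACTGTGA, on the strand of the messenger RNA, were in 396 of the 50599 probes (0.783%) and in 198 of the tested ones. The median log2 ratio of these 198 was -0.06 in 786O and -0.07 in A498, against 0.02 and 0.01 over all tested probes. An 8-base site, with an A after these letters, was in 66 tested probes, whose median log2 ratio was -0.15 in 786O and -0.18 in A498. On the 6 other arrays the median of the same 66 probes lay between 0.01 and 0.06, and no array of another treatment gave a median below 0. 38 of the 66 were below 0 in both lines (57.6%, against 29.3% of all tested probes), and 6 were below -0.5 in both (9.09%, against 1.81%), while 1 was above 0.5 in both (1.52%, against 1.67%).

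The 132 probes with the 7 letters but no A after them had medians of 0.00 in 786O and -0.04 in A498, the 182 probes with an A after the last 6 letters alone 0.01 and -0.04, and the 412 probes with only those 6 letters 0.05 and 0.04. The reverse complement TCACAGT, which was in 142 tested probes, gave -0.02 and 0.03. In PC3 the 8-base site was in 70 tested probes with a median of -0.38, and 40.0% of them were below -0.5, against 15.5% of all. The order of the site types, with the 8-base site lowest, was the same in all 3 lines down to the 6-letter match although both kinds of 7-letter site had nearly the same median in 786O and in A498. A probe covers only 60 bases of a transcript, so a gene whose probe lacks the letters may carry the site elsewhere.

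**Figure D5:**
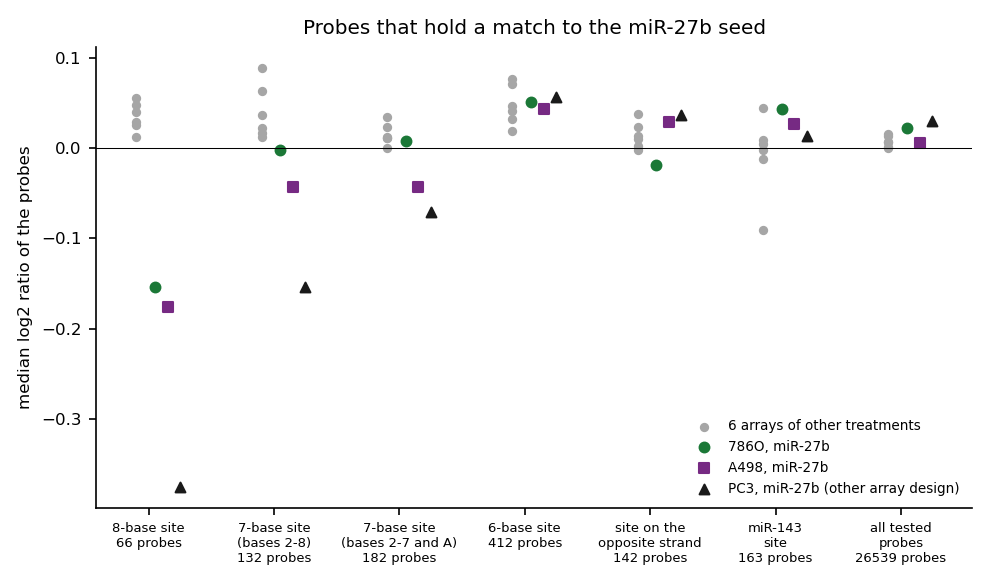
Median log2 ratio (y axis) of the tested probes that hold each kind of match (x axis, with the number of probes on the renal array design), for miR-27b in 786O (green), A498 (purple) and PC3 (black) and for the 6 arrays of other treatments (grey). The 8-base site gave -0.15, -0.18 and -0.38 with miR-27b, below the grey points, which lie above 0.

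The probes printed at the start are among the lowest with the site. Besides HDHD2, B4GALT3 and LIMK1, CSF1, the growth factor of macrophages, was at -0.72 ± 0.22 in 786O and -0.88 ± 0.22 in A498, and PLK2, a kinase of the polo family, at -0.79 ± 0.22 and -0.53 ± 0.21. Neither passed the limma test (adjusted p = 0.064 and 0.052). GLI2 and HOXB8 show that a site was no guarantee of a low value: HOXB8 read 0.73 in 786O and -1.08 in A498 on a probe with an 8-base site, and GLI2 read 0.09 and 1.15. PKN2, added after its values were seen, read 1.29 and 1.37 on a probe with an 8-base site and at least 1 dim channel.

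In each of the other lists of genes, at most 1 gene was past 0.5 in both lines. In the list of 20 hypoxia (HIF) targets, which are constitutively active in many renal carcinomas, no gene was past 0.5 in both lines and the medians were -0.08 in 786O and -0.02 in A498; ANGPTL4, a lipase inhibitor, was lowest at -0.17 and -0.38. In PC3 the same list had a median of -0.66 over 19 genes, with 11 below -0.5 (14.4% of all genes were). All 20 genes of S phase and 20 of G2 and mitosis were measured, with medians of 0.15 and -0.06 and of 0.01 and 0.09. Only UHRF1, which maintains DNA methylation, was past 0.5 in both lines (0.57 and 0.63; limma, adjusted p = 0.14). In PC3 the medians of these 2 lists were 1.09 and 1.13, and 18 and 20 of their 20 genes were above 0.5 (19.4% of all genes were), so that the cell cycle genes read differently there; the difference between lines was not tested.

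Of the 14 genes of fatty acid and triglyceride synthesis none was past 0.5 in both lines. GPAM, the acyltransferase that starts glycerolipid synthesis, was lowest at -1.34 in 786O and -0.49 in A498 (limma, adjusted p = 0.13). Of the 16 genes of cholesterol synthesis and uptake none was past 0.5 in both lines, and INSIG1, which retains the sterol sensor in the endoplasmic reticulum, was highest at 0.34 and 0.29 (limma, adjusted p = 0.18). AXL, a receptor tyrosine kinase, was at 0.57 in 786O and 1.75 in A498, but reached 1.98 on an array of another treatment. SLC7A11, the cystine transporter, was at -0.88 and -0.75 (limma, adjusted p = 0.11), and TP53INP1, a p53 target, at 0.62 and 0.84, with at least 1 dim channel. The 10 genes of the HIF pathway itself, 19 of the interferon response, 17 nuclear receptors (apart from PPARG), 15 of RAS and ERK feedback, 14 of Notch and Wnt, 12 epithelial and mesenchymal genes, 11 inflammatory cytokines, 17 of the extracellular matrix, 13 of the miRNA pathway and 11 reference genes had none past 0.5 in both lines. Among the 14 TGF-beta genes TGFBR1 was the only one. The host gene AOPEP was at -0.26 and -0.14, and array probes do not read the mature microRNA, so that its level after transfection was not measured.

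Of 2216 long intergenic non-coding RNAs tested that carry no gene name, 70 were below -0.5 in both lines (3.16%, against 1.56% of the named genes) and 71 above 0.5 (3.20%, against 1.29%). On the 6 other arrays 46 of the 70 also averaged below -0.5 (1.05% of the named genes did), and 25 of the 71 averaged above 0.5 (1.20%). The shares over all 2216 were not taken. Only 29 of the 70 and 17 of the 71 had no dim channel. Among the named genes it was 162 of the 230 low and 89 of the 190 high ones.

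The lines were also compared with each other. No gene passed the limma test of A498 minus 786O, in which the spread came from the 3 other pairs of arrays and 1239 of 26539 probes had an unadjusted p under 0.05, and the smallest adjusted p was 0.18. By size alone, among genes with no dim channel, 20 were below -1.0 in 786O and within 0.5 of 0 in A498 (0.135% of genes), and 13 the reverse (0.0879%). 6 genes were above 1.0 in 786O alone (0.0406%) and 4 in A498 alone (0.0271%).

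KLF8, a Krüppel-like repressor, had the largest difference: its signals were 143 and 115 in 786O but 407 and 22.9 in A498, which gave -0.31 ± 0.21 and -4.15 ± 0.44. A second KLF8 probe gave -0.23 in 786O and -1.24 in A498, lower in A498 as well. With normexp background correction the KLF8 difference passed (limma, adjusted p = 0.00016, the range over 8 alternatives being 0.00016 to 0.46). GATA3, a transcription factor of the kidney and of T cells, was at -2.12 ± 0.34 in 786O, with signals of 106 and 24.5, and at -0.22 ± 0.43 in A498, where its signals were 14.2 and 12.1. CELSR3, an adhesion G protein-coupled receptor (-0.33 and -1.94), and the small GTPase REM2 (0.36 and -1.28) were lower in A498, and SLC23A3 (-1.73 and 0.28) and AANAT, an enzyme of melatonin synthesis (-1.83 and 0.07), in 786O. The other SLC23A3 probe was at 0.22 in 786O and 0.25 in A498, so that the low value rested on 1 probe. RASL10B read -1.63 in 786O, but averaged -1.46 on the 6 other arrays.

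The 9 genes named from those above 1.0 in 1 line alone had low control signals there, although well above background: PIEZO2, a mechanosensitive channel (1.10 and -0.16), DISC1 (1.04 and 0.15), SLCO2B1 (1.0 and 0.28), SHF (1.06 and 0.31) and LCA5 (1.09 and 0.50) had control signals of 15.3 to 19.5 in 786O, and APCS (-0.23 and 1.13), OR6W1P (-0.23 and 1.05), OR4C15 (0.22 and 1.37) and GLI2 (0.09 and 1.15) of 16.4 to 20.8 in A498. 66 genes were past 0.5 in opposite directions (0.446% of genes), and 21 of these had no dim channel.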

How the data were processed

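The deposited scanner files gave processed signal intensity per spot and channel and a log10 ratio of Cy5 over Cy3, made by the authors with Agilent Feature Extraction 10.7.3.1 (background subtraction and dye normalization), equal to the deposited log10 values of the series matrix. Here control and outlier spots were removed, spots were averaged per probe, and the ratio was put on the log2 scale. A probe was well above background in a channel if at least 0.5 of its spots were. Probes were matched to RefSeq symbols (31438 of 50599, 21370 genes), and a gene was read by its brightest tested probe. limma 3.58.1 (R 4.3.3) fitted 8 arrays with 1 coefficient for each treatment (4 residual degrees of freedom; 3 for the line difference), with Benjamini-Hochberg adjustment. 11 probes lacked a value on an array and were fitted without it. Both fits were tested on simulated data with independent normal noise. The simulated line differences were larger than any of those named here, so power at the sizes seen was not measured. The comparison, the gene lists and the limits were chosen with earlier results of these data known. Named genes were the 10 largest average falls and rises past 0.5 in both lines, in all 4 channels and after subtraction of the 6 other arrays; the 5 largest line-specific differences for each line and direction; the 3 largest opposite ones each way; the reported targets; and the lowest, highest and called members of the other lists. No replicate of a line was analysed, so p-values measure the spread between lines or times of a treatment. The remaining 13 arrays were not used here.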

Additional observations from a re-analysis of the deposited data

Results flagged for a closer look

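The 6 genes with the largest differences of opposite direction, with no dim channel, moved one way in 786O and the other way in A498, and none of the differences passed the limma test in the fit reported. APOL6, an apolipoprotein L gene, read -1.04 in 786O and 1.56 in A498, a difference of 2.60 (limma, adjusted p = 0.49). Its 3 probes spanned -1.04 to 1.12 in 786O and -1.46 to 1.56 in A498, and with the mean over them the difference was -0.05. The APOL6 difference passed with normexp (limma, adjusted p = 0.024) and with no background correction (limma, adjusted p = 0.046), the range over 8 alternatives being 0.024 to 1.0. WDR25 read -1.60 and 0.62, a difference of 2.23 (limma, adjusted p = 0.28), and passed with no filter on dim probes (limma, adjusted p = 0.013; range 0.013 to 0.65). TRMT2B, a tRNA methyltransferase gene, read -0.90 and 1.0, a difference of 1.91 (limma, adjusted p = 0.49), and its other probe reached 0.83 in 786O and -0.51 in A498. It passed with normexp (limma, adjusted p = 0.032; range 0.032 to 1.0). CRCP, a subunit of RNA polymerase III, read 1.32 and -1.01, a difference of -2.33 (limma, adjusted p = 0.56), and its other probe was at 0.14 and -0.20. CAMSAP3, which binds microtubule minus ends, read 0.71 and -1.20, a difference of -1.91 (limma, adjusted p = 0.49). HOXB8 read 0.73 and -1.08, a difference of -1.81 (limma, adjusted p = 0.87).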

How the results depend on the processing

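Precision was limited by having 1 array for each line and by dim probes, the filter on which moved several counts below. No paired analysis was possible because each line has 1 array and the replicate numbers pair nothing. With normexp background correction (offset 50) and loess, 76 genes were lower and 32 higher in both lines, limma called 312 lower and 276 higher, 5 line differences passed and 7 genes were line-specific by size. With no background correction and loess these were 103, 45, 271, 190, 5 and 10. With no filter on dim probes they were 554, 478, 86, 41, 484 and 1436. With all 4 channels required, 89 genes were higher in both lines. A limit of 1.0 gave 62 lower, 18 higher and 1 reported target lower in both lines, and 92 line-specific genes when the other line could reach 1.0. With 1 line left out, 556 to 599 genes were lower, 589 to 706 higher, and limma called 0 to 3 lower and 0 higher. Subtraction of the mean of the 6 other arrays left limma 17 lower and 4 higher genes, the mean over probes 130 and 62, and the fit without the CXCL10 arrays 2 and 0. With only the 2 miR-27b arrays, or in the contrast with the mean of the other treatments, which was chosen after seeing the data, limma called 0 and 0 (835 lower and 1014 higher at an unadjusted p under 0.05 with the 2 arrays). The cause of these differences was not tested.

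The median of the probes with the 7-letter site, averaged over both lines, was -0.05, and became -0.0317 with normexp, -0.0659 with centring on the array median, -0.0714 with all 4 channels, -0.0987 with subtraction of the other arrays, 0 with no filter, -0.0758 over genes, and -0.0712 to -0.0643 with 1 line left out. The PC3 median of the low genes (-1.15) was -0.56 with no filter and -0.61 to -0.49 with 1 line left out. That of the high genes (0.84) was 1.31 with normexp, 1.15 with no background correction, 0.55 with subtraction, 1.14 with all 4 channels, 0.19 with no filter, 1.12 at the limit of 1.0 and 0.52 to 0.54 with 1 line left out. The reported targets' median of both lines (-0.26) was -0.20 with normexp, -0.21 with no background correction or with subtraction, and -0.19 over the mean of probes. With the mean over probes the line differences changed sign for DISC1 (-0.88 to 0.11) and APOL6 (2.60 to -0.0495), and with normexp for SLCO2B1 (-0.72 to 0.0554). The averages changed sign for ST14 (-0.0860 without 786O, 0.157 without A498) and VDR (-0.00098 with subtraction or in the contrast). That of PHB1 did so with the mean over probes (0.0011). The reversed values were all small and uncalled, but the reported line differences of DISC1, APOL6 and SLCO2B1 were not small. Of the 10 lowest named genes, limma called 9 in the fit reported, 10 with normexp, 6 with subtraction and 0 in the contrast; of the 10 highest, 6, 10, 1 and 0. The series matrix gave the same values.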
